A study of Mus musculus with 6 samples.

Results

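The genes of the primary granule proteases and of their closest partners were followed in poly(A) RNA of CD11b+Gr1+ splenocytes from tumor-bearing Mll-AF9 mice. The 10 genes were taken as a named set: the serine proteases Elane, Prtn3, Ctsg and Prss57, the peroxidase gene Mpo, the activating protease gene Ctsc, the storage proteoglycan gene Srgn, the inhibitor genes Serpinb1a and Cst7, and the stage gene Ms4a3. All 10 passed the filter on low counts that left 16656 of the 29374 genes with any estimated read. The study asked how loss of the ribosomal protein gene Rpl22 alters leukemia, and 3 libraries were Rpl22+/+ Mll-AF9 and 3 were Rpl22-/- Mll-AF9. All mice carried Mll-AF9, a fusion oncogene of acute myeloid leukemia, as a knockin allele, and per the study the Rpl22-/- animals came from crossing that line with Rpl22-deficient mice. The cells were spleen cells sorted for CD11b and Gr1 in both genotypes. The labels state neither the age of the mice nor if the 3 libraries per genotype were made from different animals, and the study names 1 animal of each genotype as the source of its leukemia explants, so p-values measure the spread between these libraries, which may be technical.

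Primary (azurophil) granules are made in a short window of neutrophil development, at the promyelocyte stage, and are kept in the mature cell. Their serine proteases are made as inactive precursors, are cut to the active form by the cathepsin C encoded by Ctsc, and are packed on the sulfated chains of serglycin, the product of Srgn. Cystatin F, the product of Cst7, holds cathepsin C back, and the serpin of Serpinb1a traps neutrophil serine proteases that reach the cytosol.

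The shallowest library, Rpl22-/- replicate 1, held 35828500 estimated reads and the deepest, Rpl22-/- replicate 3, held 102866127. Rpl22 itself (ENSMUSG00000028936) was at 148, 235 and 152 CPM (counts scaled to a common library total and for library composition) in the Rpl22+/+ libraries and at 58.3, 89.9 and 73.5 CPM in the Rpl22-/- libraries, a log2 fold change of -1.27 with an SE of 0.25 (adjusted p = 0.0106). Its estimated level in Rpl22-/- was thus 0.414 of that in Rpl22+/+, and where in the gene the remaining reads lie was not examined. Rpl22+/+ replicate 2 stood apart from the other Rpl22+/+ libraries, with correlations of log2 CPM across genes of 0.926 and 0.934 to replicates 1 and 3, which correlated at 0.992 with each other. All 4 genes of the sort antigens were detected in every library, and 2 of them fell in Rpl22-/-. Itgam (CD11b) was at 1838 to 2085 CPM in Rpl22+/+ and 815 to 1036 CPM in Rpl22-/- (log2 fold change -1.02), and Ly6g (Gr1) at 149 to 178 CPM and 11.1 to 15.7 CPM (-3.49). Ly6c2, which also carries the Gr1 epitope, was at 768 to 1280 CPM and 1186 to 1678 CPM and was not called, nor was Ly6c1.

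Of the 10 genes, 7 rose in Rpl22-/- (Elane, Prtn3, Ctsg, Prss57, Mpo, Srgn and Ms4a3), 2 fell (Ctsc and Cst7) and Serpinb1a was not called. The rises were 4.82-fold to 11.1-fold. A gene was called with an adjusted p below 0.05 and a log2 fold change above 1 in size, by edgeR's quasi-likelihood test with Benjamini-Hochberg adjustment over all genes tested, and 8.93% of all genes tested were called higher and 8.54% lower. The median log2 fold change of the 10 genes was 2.56, and that of all genes tested was 0.07. The levels of the genotypes did not overlap for 9 of the 10 genes, 7 higher and 2 lower in Rpl22-/-, against 46.1% of all genes tested (23.9% higher and 22.2% lower). In bulk RNA a change in the number of cells of a stage cannot be told apart from a change in RNA per cell.

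**Figure D1:**
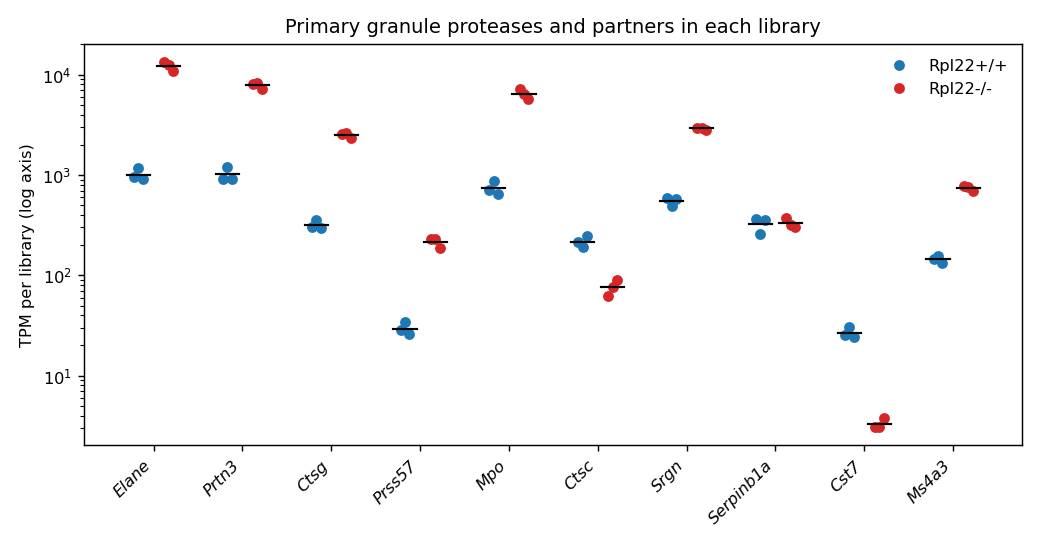
Level of each gene in each of the 6 libraries in TPM (a length-corrected level with the same sum in every library) on a log axis, with Rpl22+/+ libraries in blue, Rpl22-/- libraries in red and the group mean as a black line. The Rpl22-/- points lie above the Rpl22+/+ points for 7 genes and below them for Ctsc and Cst7, and the groups overlap for Serpinb1a.

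Elane encodes neutrophil elastase and stands on chromosome 10 (79722081 to 79724049, GRCm39, plus strand). It was at 582, 934 and 565 CPM in the Rpl22+/+ libraries and at 7933, 8430 and 6806 CPM in the Rpl22-/- libraries. Every Rpl22-/- library was far above every Rpl22+/+ library, and the log2 fold change was 3.48 ± 0.27 (SE, n = 3 libraries per genotype, adjusted p = 0.00033 by edgeR's quasi-likelihood test). Per length, the level went from 1006 ± 143 TPM to 12175 ± 1233 TPM (SD, n = 3 each). In the ranking of genes by TPM within a library, Elane was at place 133 to 147 in Rpl22+/+ and at place 3 or 4 in Rpl22-/-.

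Prtn3 encodes proteinase 3, the elastase-like protease next to Elane, and lies 3.07 kb before it (79710310 to 79719008, plus strand). It was at 520, 896 and 518 CPM in Rpl22+/+ and at 4464, 5305 and 4310 CPM in Rpl22-/-. The groups were apart by more than their spread, with a log2 fold change of 2.86 ± 0.28 (adjusted p = 0.00071, edgeR). Its TPM went from 1012 ± 170 to 7872 ± 536 and its place in the ranking was 126 to 146 in Rpl22+/+ and 6 to 10 in Rpl22-/-.

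Ctsg encodes cathepsin G, a serine protease despite its name, on chromosome 14 (56337338 to 56340031, minus strand). Its level was 187, 285 and 189 CPM in Rpl22+/+ and 1541, 1834 and 1466 CPM in Rpl22-/-, a log2 fold change of 2.87 ± 0.23 (adjusted p = 0.00038). Prss57 encodes neutrophil serine protease 4 and shares the chromosome 10 region with Prtn3 and Elane (79617308 to 79626795, minus strand). Per length it was the least abundant of the 4 serine protease genes, at a mean of 29.5 TPM in Rpl22+/+. Its counts were at 32.5, 49.3 and 29.7 CPM in Rpl22+/+ and 273, 287 and 218 CPM in Rpl22-/-, a log2 fold change of 2.80 ± 0.24 (adjusted p = 0.000494). Each of the 4 serine protease genes rose, and together they held 0.214% to 0.276% of all TPM in the Rpl22+/+ libraries and 2.06% to 2.42% in the Rpl22-/- libraries.

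Mpo encodes myeloperoxidase, the heme enzyme that makes hypochlorous acid, and lies on chromosome 11 (87684407 to 87695239, plus strand). Its level was 1112, 1854 and 1033 CPM in Rpl22+/+ and 11046, 11275 and 9459 CPM in Rpl22-/-. The log2 fold change was 2.99 ± 0.28 (adjusted p = 0.000663, edgeR), and no Rpl22-/- library came near the Rpl22+/+ range. Per length, Mpo went from 740 ± 121 to 6430 ± 798 TPM.

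The promoters of Elane and Prtn3, as neighbours that rose together, and of Ctsg and Mpo, as rising genes of other chromosomes, are shown from 250 bases before the start to 50 bases after it (RefSeq, GRCm38.p6, a different build from the gene positions). Capitals mark matches on either strand to GGAAGT, the core of sites bound by PU.1, and to AACGG, a form of the core of sites bound by MYB.
Elane promoter, chr10:79886062-79886361, plus strand: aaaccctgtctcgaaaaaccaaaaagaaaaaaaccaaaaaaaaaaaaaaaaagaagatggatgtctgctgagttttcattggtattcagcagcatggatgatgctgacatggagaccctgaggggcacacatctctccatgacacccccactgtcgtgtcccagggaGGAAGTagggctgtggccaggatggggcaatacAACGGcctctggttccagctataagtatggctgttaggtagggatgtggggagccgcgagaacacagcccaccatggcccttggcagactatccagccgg
Prtn3 promoter, chr10:79879417-79879716, plus strand: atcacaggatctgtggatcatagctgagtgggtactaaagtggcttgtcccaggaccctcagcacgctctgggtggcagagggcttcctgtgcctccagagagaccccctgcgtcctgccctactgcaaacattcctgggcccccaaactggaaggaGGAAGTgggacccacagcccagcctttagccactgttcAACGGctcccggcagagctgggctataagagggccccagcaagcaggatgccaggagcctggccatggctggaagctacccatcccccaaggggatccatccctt
Ctsg promoter, chr14:56102525-56102824, minus strand: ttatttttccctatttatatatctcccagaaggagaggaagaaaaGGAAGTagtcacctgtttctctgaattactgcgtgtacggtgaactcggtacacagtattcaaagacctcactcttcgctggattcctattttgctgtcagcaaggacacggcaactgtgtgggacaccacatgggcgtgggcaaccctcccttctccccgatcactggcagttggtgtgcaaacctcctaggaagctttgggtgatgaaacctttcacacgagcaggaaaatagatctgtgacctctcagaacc
Mpo promoter, chr11:87793534-87793833, plus strand: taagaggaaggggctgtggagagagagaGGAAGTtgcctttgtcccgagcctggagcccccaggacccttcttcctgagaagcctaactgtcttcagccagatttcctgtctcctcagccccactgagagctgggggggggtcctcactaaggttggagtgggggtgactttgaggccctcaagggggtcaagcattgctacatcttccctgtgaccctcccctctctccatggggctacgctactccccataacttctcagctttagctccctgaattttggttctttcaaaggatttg
These motifs were chosen after the promoters had been read, so a match is a description only. The RefSeq table held 9 promoters for 8 of the 10 genes (Elane, Prtn3, Ctsg, Mpo, Ctsc, Cst7, Ms4a3 and 2 of Srgn). GGAAGT was in 8 of these 9, of rising and falling genes alike and not in the second of Srgn, and in 23.8% of the 32851 promoters of the table. In Elane it began 83 bases and in Prtn3 93 bases before the start, and in Ctsg and Mpo 205 and 222 bases before it. AACGG was in the Elane promoter (50 bases before the start) and the Prtn3 promoter (55 bases before it). It was in none of the other 7 promoters and in 17.4% of all promoters. Other forms of the MYB core were not searched, so these counts hold for AACGG alone. TGTGGT, the core of sites bound by RUNX factors, was in 3 of the 9 (Ctsg, the second of Srgn and Cst7) against 16.8% of all, and TTGCNNAA, an incomplete form of the C/EBP site, was in 2 (Cst7 and Ms4a3) against 10.8%. The printed motifs did not overlap one another.

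Srgn encodes serglycin, the proteoglycan on which granule proteases are stored, on chromosome 10 far from the protease cluster (62329612 to 62363230, minus strand). Its level was 312, 334 and 314 CPM in Rpl22+/+ and 1545, 1763 and 1504 CPM in Rpl22-/-. The spread within a genotype was small beside the difference, and the log2 fold change was 2.33 ± 0.15 (adjusted p = 0.000151). Ms4a3 encodes a membrane protein known from granulocyte-monocyte progenitors (chromosome 19, 11606860 to 11618215, minus strand). It was at 90.8, 125 and 84.3 CPM in Rpl22+/+ and 482, 528 and 438 CPM in Rpl22-/-, a log2 fold change of 2.27 ± 0.20 (adjusted p = 0.000494).

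Ctsc, whose product cuts the serine protease precursors, fell while the protease genes rose. On chromosome 7 (87927293 to 87960096, plus strand), it was at 321, 354 and 371 CPM in Rpl22+/+ and at 87.9, 125 and 131 CPM in Rpl22-/-. Each Rpl22-/- library was below each Rpl22+/+ library, with a log2 fold change of -1.60 ± 0.19 (adjusted p = 0.00151), a 3.04-fold lower level. Per length it went from 217 ± 27.2 to 75.8 ± 13.2 TPM.

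Cst7, the gene of the cathepsin C inhibitor, fell as well. It lies on chromosome 2 (150412335 to 150420864, plus strand). Its level was 15.8, 24.6 and 15.3 CPM in Rpl22+/+ and 1.82, 2.12 and 2.39 CPM in Rpl22-/-, from 1110, 1825 and 1142 reads and from 68, 212 and 253 reads. The fall was 8.77-fold, a log2 fold change of -3.13 ± 0.25 (adjusted p = 0.000384), the lowest value among the 10 genes. The Cst7 promoter is shown beside those of the rising genes because it holds the same GGAAGT core 62 bases before the start, with a TTGCNNAA match on the minus strand also in capitals.
Cst7 promoter, chr2:150570165-150570464, plus strand: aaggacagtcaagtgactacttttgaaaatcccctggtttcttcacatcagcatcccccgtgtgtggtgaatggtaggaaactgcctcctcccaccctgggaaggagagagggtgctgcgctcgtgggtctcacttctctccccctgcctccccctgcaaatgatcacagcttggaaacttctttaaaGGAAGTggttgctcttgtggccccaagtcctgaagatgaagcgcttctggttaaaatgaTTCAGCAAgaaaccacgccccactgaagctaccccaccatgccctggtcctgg

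Serpinb1a, the gene of the serpin that inhibits elastase, proteinase 3 and cathepsin G, was not called. On chromosome 13 (33026075 to 33035168, minus strand), it was at 376, 341 and 354 CPM in Rpl22+/+ and at 380, 377 and 312 CPM in Rpl22-/-, and the groups overlapped. The log2 fold change was -0.0035 ± 0.14 (adjusted p = 0.989), with a 95% interval of the fold from 0.790 to 1.26.

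**Figure D2:**
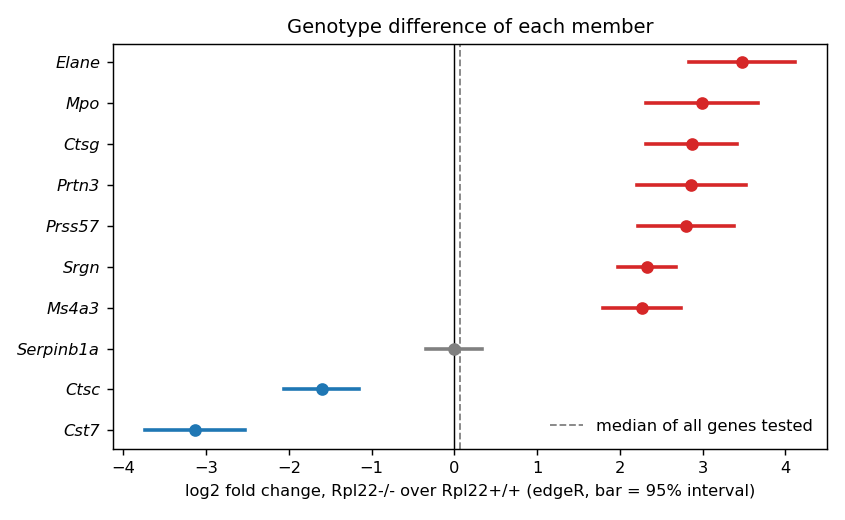
Log2 fold change of each gene, Rpl22-/- over Rpl22+/+, from the edgeR fit, with its 95% interval as a bar and the median of all genes tested as a dashed line (red called higher, blue called lower, grey not called). The 7 rising genes lie at 2.27 to 3.48, Serpinb1a lies at 0, and Ctsc and Cst7 lie at -1.60 and -3.13.

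Within a library, TPM allows genes to be set side by side. In Rpl22+/+ the order was Prtn3 and Elane, whose ranges overlapped, then Mpo, Srgn, Serpinb1a and Ctsg, whose ranges also overlapped, then Ctsc, Ms4a3, Prss57 and Cst7, the last 2 with overlapping ranges. In Rpl22-/- the order was Elane, then Prtn3 and Mpo, whose ranges overlapped, then Srgn, Ctsg, Ms4a3, Serpinb1a, Prss57, Ctsc and Cst7, each with no overlap with the next. The 10 genes together held 0.411% to 0.477% of all TPM in Rpl22+/+ and 3.02% to 3.56% in Rpl22-/-.

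Ratios between pairs of these genes within a library do not depend on the library scaling. Elane and Prtn3 were at near-equal TPM in Rpl22+/+ (ratio 0.969 to 1.03), and Elane was 1.49 to 1.65 times Prtn3 in Rpl22-/-. The ratio of Elane to Mpo was between 1.34 and 1.41 in Rpl22+/+ and between 1.83 and 1.95 in Rpl22-/-, and that of Elane to Ctsg was between 3.02 and 3.32 and between 4.67 and 5.22. Relative to each of these 3 genes, Elane was higher in every Rpl22-/- library than in any Rpl22+/+ library. Against its storage partner, the ratio of Elane to Srgn was between 1.56 and 2.38 in Rpl22+/+ and between 3.89 and 4.48 in Rpl22-/-. Against its inhibitor, the ratio of Elane to Serpinb1a was between 2.56 and 4.53 and between 35.5 and 39.2. Against its activator, the ratio of Elane to Ctsc was between 3.68 and 6.10 in Rpl22+/+ and between 122 and 213 in Rpl22-/-, a 34.9-fold difference and the widest of those computed. The ratio of Ctsc to its inhibitor gene Cst7 was between 6.23 and 10.1 in Rpl22+/+ and between 20.4 and 24.5 in Rpl22-/-. In all 7 ratios the groups did not overlap, and the two-sided exact permutation p was 0.1 for each and 0.1 after adjustment over the 7, the smallest p that 3 libraries against 3 can give. Elane stands in 6 of the 7 ratios, which are therefore not independent. Over the tested genes averaging 3 TPM or more and above 0 in each library, 51.8% of all gene pairs and 96.6% of the ratios of Elane to another gene did not overlap either, so the count of 7 says nothing particular to these genes.

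**Figure D3:**
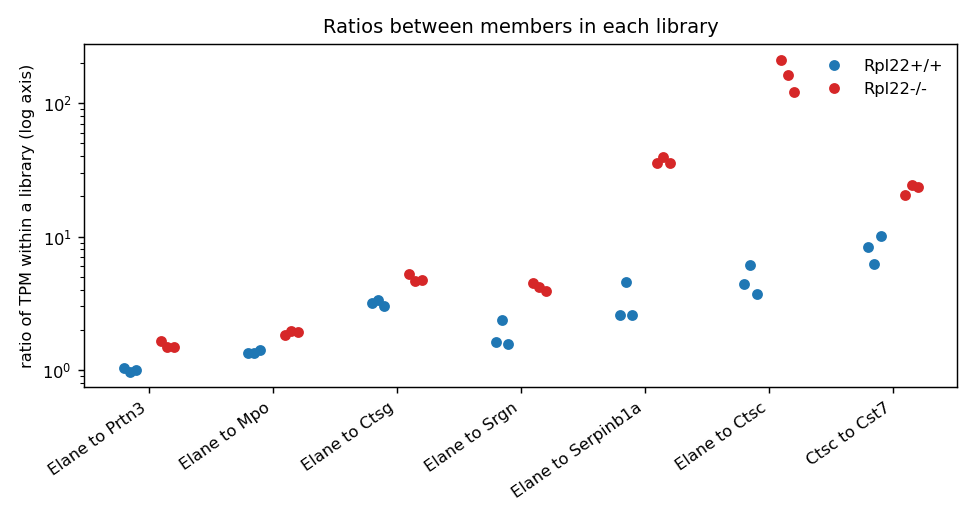
Ratio of TPM between pairs of genes within each library on a log axis, Rpl22+/+ in blue and Rpl22-/- in red. The groups are apart in all 7 ratios, least for Elane to Mpo (1.39-fold) and most for Elane to Ctsc (34.9-fold).

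The libraries of a genotype also differed among themselves. In CPM, Rpl22+/+ replicate 2 was the highest Rpl22+/+ library for the 4 serine proteases and Mpo, whose transcripts have a GC content of 51.5% to 60.2%, and also for Cst7 (50.1%), Ms4a3 (45.9%) and Srgn (43.9%). In TPM this held for the same genes except Srgn, where replicate 2 was the lowest (493 TPM against 585 and 579 TPM). The coefficient of variation of the 4 serine proteases and Mpo in Rpl22+/+ was 25.5% to 34.0% in CPM and 9.69% to 16.8% in TPM. With a correction for GC content the log2 fold change of Elane was 3.43, that of Prtn3 2.75 and that of Cst7 -3.10.

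The transcripts of a gene were then compared as shares of its TPM. Elane and Cst7 had 1 transcript each. For Prtn3, transcripts annotated with a retained intron held 36.8%, 36.7% and 39.7% of its TPM in Rpl22+/+ and 30.8%, 30.0% and 29.5% in Rpl22-/-. The share of the spliced protein-coding transcripts was higher in each Rpl22-/- library (68.9% to 70.2%) than in any Rpl22+/+ library (59.9% to 62.8%). In absolute level both classes were higher in Rpl22-/-, the retained-intron class at 339 to 444 TPM in Rpl22+/+ and 2140 to 2487 TPM in Rpl22-/-. Over the 10 genes, 5 of 28 transcripts with a share of 1% to 99% had groups that did not overlap, and 18.0% of transcripts in that range did so when every tested gene averaging 3 TPM or more, and above 0 in each library, was counted. The 5 were Prtn3-201 and Ms4a3-201, higher in share, and Prtn3-204, Mpo-201 and Serpinb1a-202, lower in share. Transcripts of 1 gene share reads, so these shares are not independent, and no test was made.

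**Figure D4:**
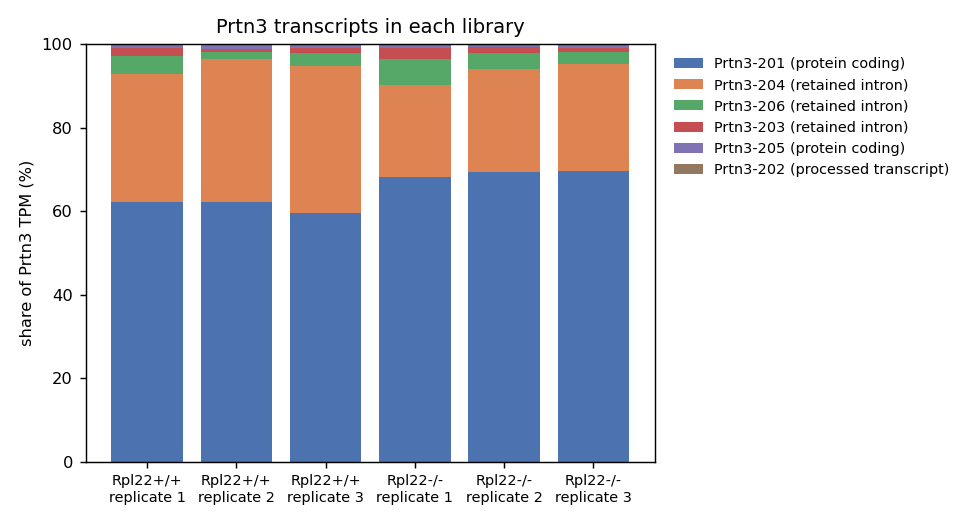
Share of the TPM of Prtn3 (percent) held by each of its annotated transcripts in each library, as stacked bars. The main protein-coding transcript Prtn3-201 holds 59.4% to 62.2% in the Rpl22+/+ libraries and 68.2% to 69.6% in the Rpl22-/- libraries, and the retained-intron transcript Prtn3-204 holds 30.6% to 35.3% and 22.1% to 25.5%.

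The chromosome 10 protease region was also read gene by gene. Prss57, Prtn3 and Elane lie within 107 kb (GRCm39), with Palm, Misp, Ptbp1 and Plppr3 between them. Plppr3, a gene of the lipid phosphatase-related family known from neurons, rose with the proteases, from 74.4, 89.5 and 73.4 CPM to 658, 550 and 523 CPM (log2 fold change 2.87 ± 0.17, adjusted p = 0.000118). Its positions overlap those of Prtn3 by 159 bases on the opposite strand, and the strand setting of the counting is not given in the sources used here, so reads of the overlap may not be separable. Palm (0.51), Misp (1.27) and Ptbp1 (0.27, the splicing repressor) were not called, in log2 fold change. Cfd, the complement factor D gene 2.64 kb after Elane, was called higher (2.27 ± 0.47) at low levels of 0.266 and 1.30 CPM, Med16 was not called, and R3hdm4 fell by 1.21 on the log2 scale. Around Mpo, Tspoap1 rose (1.88 ± 0.32), and around Cst7, Apmap and Acss1 fell (-1.28 and -1.25). Around Ms4a3, which rose, its relatives Ms4a6b (-1.14) and Ms4a6d (-1.45) and the syntaxin gene Stx3 (-2.04) fell and Oosp1 rose (1.33). Around Ctsg, Sdr39u1 (1.39) and Rnf17 rose, Rnf17 from a mean of 0.110 to 9.72 CPM, and around Ctsc, which fell, 1 pseudogene was called higher. Of the 52 tested genes nearest to the 10 genes, 7 were called higher and 6 lower, with a median log2 fold change of -0.03, where 8.93% of all genes tested were called higher and 8.54% lower.

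Other genes of the granule program were counted in 9 lists of 127 genes, of which 119 were tested, 15 were called higher and 19 lower, or 28.6% against 17.5% of all genes tested. The median log2 fold change over the 9 lists was -0.03. Of 17 genes for other contents and membrane proteins of azurophil granules, 0 were called higher and 4 lower by edgeR, with a median of -0.28. At an unadjusted p below 0.05, 3 of the 17 were higher by edgeR, 4 by DESeq2 and 4 or 5 by limma, and DESeq2 and limma also called 0 higher. Among those lower were the lysozyme genes Lyz1 and Lyz2, whose reads may be split between near-identical copies, and the prosaposin gene Psap (-1.26). Per length, Lyz2 was the most abundant gene of the list, with a mean of 10462 TPM in Rpl22+/+ against 4628 TPM in Rpl22-/- (log2 fold change -1.28 ± 0.24).

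Of 12 other genes known from the promyelocyte and its progenitors, 8 were called higher and 2 lower, with a median of 1.23. Nkg7, a granule membrane protein gene, rose from 18.8 to 151 CPM (3.01 ± 0.25), Fcnb, the ficolin gene of neutrophil granules, from 220 to 711 CPM (1.69 ± 0.19), and Gstm1, a glutathione transferase gene, from 140 to 447 CPM (1.67 ± 0.20). Hdc, the histidine decarboxylase gene, fell from 503 to 2.97 CPM (-7.39 ± 0.32).

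Of 16 transcription factors known to act on primary granule genes or in promyelocytes, 2 rose and 2 fell, and the median was -0.10. Gfi1, a repressor needed for granulopoiesis, went from 63.5 to 292 CPM (2.20 ± 0.15), and Myb, a progenitor factor, from 178 to 476 CPM (1.42 ± 0.24). Whether these factors act on the granule genes in these cells was not tested. Klf5 fell by 1.78 and Lef1 by 1.56 on the log2 scale, Lef1 at levels of 1.81 and 0.617 CPM. Spi1, which encodes PU.1, was not called (-0.47 ± 0.23, adjusted p = 0.183), nor was Cebpa (0.83 ± 0.28, adjusted p = 0.0674), Cebpb (-0.05 ± 0.28), Cebpe (-0.02 ± 0.19) or Runx1 (-0.33 ± 0.16).

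The inhibitors other than Cst7 and Serpinb1a were also listed. Of 11 tested genes, namely serpins, cystatins, stefins and Slpi, 5 fell and 0 rose by edgeR's test (median -0.39), with 0 called higher by DESeq2 or limma. At an unadjusted p below 0.05, 0 were higher by edgeR and by DESeq2, and 1 was higher by limma-voom and by limma on log2(TPM + 1). Stfa3 had the largest change, from 849 to 2.55 CPM (-8.38 ± 0.40). Stfa2 and Stfa1 fell by 4.76 and 2.75 on the log2 scale. These stefin genes are near-identical copies, so the split of reads among them is uncertain. Serpinb6a fell from 22.6 to 4.57 CPM, whereas Slpi, the secreted inhibitor of elastase, was at 290 and 283 CPM (-0.04 ± 0.22, not called).

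Among the other lists, heme synthesis (Mpo carries heme) held 1 gene of 8 called by edgeR, or 12.5% against 17.5% of all genes tested. It was Alas1, the rate-limiting enzyme gene, which rose from 218 to 984 CPM (2.18 ± 0.19), and the median of the list was 0.53. With limma on log2(TPM + 0.1) 2 were called higher. At an unadjusted p below 0.05, 4 were higher by edgeR, DESeq2 and limma-voom and 6 by limma on log2 TPM. Of 20 folding and sorting genes, Calr, the calreticulin gene that takes part in myeloperoxidase folding, was the 1 gene called by edgeR (809 to 1760 CPM, 1.12 ± 0.23), and the median was 0.21. Limma on log2 TPM, at either pseudocount, called 3 higher. At an unadjusted p below 0.05, 7 were higher by edgeR, DESeq2 and limma-voom and 10 by limma on log2 TPM. Of 16 genes of serglycin chain synthesis, B3galt6 rose (1.21) and Chst15 and Ndst1 fell (-2.66 and -1.82), with a median of -0.33. Of 12 genes of other cathepsins and legumain, the cathepsins Ctse (-3.50) and Ctss (-1.16) and the legumain gene Lgmn (-1.10) fell, with a median of -0.62. Of these 12 genes 0 rose by edgeR's test, and 0 were higher at an unadjusted p below 0.05 by edgeR, DESeq2 or limma. Of 7 tested serine proteases of other blood cells, Gzma (2.38) and Cfd (2.27) rose and Prss34 fell (-4.38), all at low levels.

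**Figure D5:**
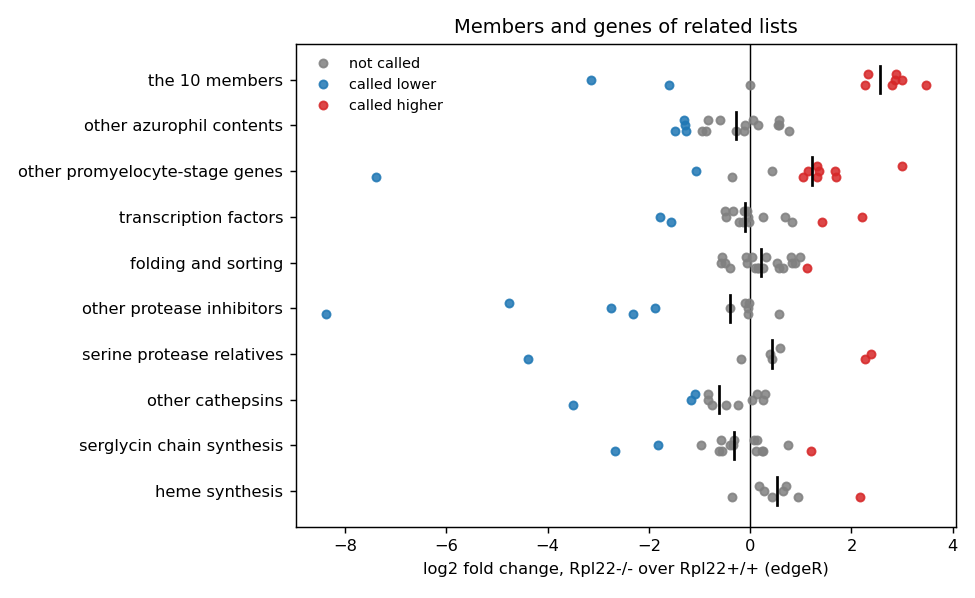
Log2 fold change of the 10 genes and of each tested gene of the 9 related lists, Rpl22-/- over Rpl22+/+ (edgeR), with the median of each list as a black bar. The 10 genes have a median of 2.56, the other promyelocyte-stage genes 1.23, and the other azurophil contents -0.28.

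Profiles over the 6 libraries were compared by the root mean square distance of centred log2 CPM, over 4091 genes at a mean of at least 50 CPM. Closest to Elane outside the 10 genes were Muc13 (0.234), Nkg7 (0.258) and Hba-a2 (0.271), and among the 10 genes Mpo was closest (0.240) and Prtn3 next (0.308). Closest to Cst7 were Pira2 (0.172), Cyp4f18 (0.223) and Phospho1 (0.275), whereas Ctsc, which also fell, was at 0.774. These distances share the libraries and are a description.

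Markers of other cells moved with the genotype too. The summed level of 10 late-neutrophil markers was 66861 to 88640 CPM in Rpl22+/+ and 32146 to 43155 CPM in Rpl22-/-, and 7 of them were called lower, among them Ltf, Mmp8 and Retnlg. The summed level of 7 erythroid markers was 84.6 to 128 CPM in Rpl22+/+ and 579 to 1152 CPM in Rpl22-/-, with 6 called higher. The 9 monocyte and macrophage markers were at 976 to 1179 and 368 to 625 CPM, with 3 called lower (Csf1r, Ccr2 and Adgre1) and 3 called higher (C1qa, C1qb and Spic, at lower levels). The 6 basophil and mast cell markers summed to 17.4 to 27.1 CPM in Rpl22+/+ and 27.4 to 30.4 CPM in Rpl22-/-, with 1 called higher and 3 lower. Gata2 was the higher one (2.06), at 3.39 to 4.56 CPM and 14.0 to 19.7 CPM. Prss34 (-4.38), Cpa3 (-3.61) and Fcer1a (-2.48) fell, and Mcpt8 (-0.18) and Ms4a2 (1.73) were not called. The 6 eosinophil markers summed to medians of 20.8 and 8.73 CPM, and only Siglecf was called (lower, from 14.8 to 16.7 CPM in Rpl22+/+ to 2.44 to 3.69 CPM in Rpl22-/-). B cell markers were at 567 to 721 and 359 to 550 CPM, where Pax5 passed the adjusted p below the size needed for a call (-0.81), and T cell markers at 39.1 to 48.6 and 12.1 to 14.6 CPM with 5 of 6 called lower. The sums of the dendritic cell, NK cell and platelet markers overlapped between the genotypes, though the dendritic cell markers Flt3 (-1.06) and Cd209a (-1.56) fell and the NK cell markers Ncr1 (2.49) and Klrb1c (1.07) rose. Those of stroma and endothelium summed to medians of 60.9 and 91.5 CPM, most of it Pecam1, which was not called (0.50). No marker was at 0 in every library. The part of these cells in the differences of the granule genes was not tested.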

How the data were processed

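Poly(A) RNA of sorted CD11b+Gr1+ splenocytes was sequenced as stranded paired-end libraries, 3 Rpl22+/+ and 3 Rpl22-/-, grouped by the sample titles. Per the submitters' processing notes, reads were trimmed with Trimmomatic and quantified with Salmon on GRCm39; versions and the transcript set are not given in the sources used here. The authors deposited, for each library, expected counts per transcript (estimated reads, which need not be whole) and TPM, which corrects for length and keeps no depth. A further table deposited by the authors gives gene positions and a base mean signal, the mean of gene counts divided by DESeq2 size factors. Its other columns hold the authors' DESeq2 comparison (fold changes, their errors and p-values) and were not used.

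Expected counts and TPM were added up per gene by the GENCODE vM21 annotation, joined on transcript identifiers after their versions had been dropped. Of 276623 transcripts 136036 matched (49.2%), with 98.0% to 98.1% of the reads. For the 10 genes the mean over libraries was 0.966 to 1.00 times the deposited base mean. Counts were rounded and tested in edgeR 4.0.16 by its quasi-likelihood method (R 4.3.3, TMM factors, filterByExpr, genotype as the only term), with Benjamini-Hochberg adjustment over the genes tested, and calls needed an adjusted p below 0.05 and a log2 fold change above 1 in size. Standard errors were derived from the F statistic. The fits were also run on simulated counts. Far fewer genes were changed there than were called here, so that run does not test shifts of this extent. CPM values carry the TMM factors. Motifs were searched on both strands of the RefSeq promoters.

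The members, the lists and the tests were chosen with earlier results of these data known, and no list was tested as a whole. Named were all 10 genes, the called genes of each list (at most the 4 with the largest change, and 1 is not reported here), the factors whose motifs were searched, the called genes among the 3 tested neighbours on each side (pseudogenes counted but not named, and in the chromosome 10 region some that were not called), and the 3 genes nearest in profile to Elane and to Cst7. Marker genes and transcripts named in the text were picked after their values were seen. Alternatives were other size factors, filters and pseudocounts, DESeq2 1.42.0, limma 3.58.1 (voom or log2 TPM), a GC correction, the replicate number as a block and leaving out each library.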

Additional observations from a re-analysis of the deposited data

How the results depend on the processing

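All 9 called genes kept their direction and their call in each of the 18 alternatives, with log2 fold changes of 3.34 to 3.71 for Elane, 2.72 to 3.13 for Prtn3, 2.83 to 3.26 for Mpo, -1.71 to -1.44 for Ctsc and -3.26 to -2.69 for Cst7, and 7 genes higher and 2 lower each time. Serpinb1a never passed the threshold, and its sign turned in 7 alternatives: 0.12 with no composition factor (adjusted p = 0.580), 0.0099 with factors computed without the 10 genes (0.972), 0.0072 with no filter (0.983), 0.036 on log2(TPM + 1) (0.889), 0.036 on log2(TPM + 0.1) (0.886), and over the omitted libraries from -0.081 to 0.089, positive without Rpl22+/+ replicate 1 (0.029) and without Rpl22-/- replicate 3 (0.089). Pathway list genes numbered 13 to 18 higher and 15 to 19 lower. On log2(TPM + 1), 906 of all genes tested were called higher and 699 lower, against 1488 and 1423. With no composition factor the median over all genes shifted from 0.07 to 0.19 (log2), and 59.7% of all calls, in place of 51.1%, were in the higher direction. Libraries of the same replicate number correlated in their deviations at 0.48, 0.63 and 0.097 over all genes tested and at 0.57, 0.71 and 0.13 over those averaging 50 counts or more. In both, Rpl22+/+ replicate 3 correlated better with Rpl22-/- replicate 1 (0.36 and 0.43), so pairing was not assumed and the block was kept as an alternative. With the replicate block, Elane was at 3.51 and Cst7 at -3.11, 1691 genes were called higher and 1488 lower, and no call among the 10 genes changed. Taking the most abundant transcript in place of the gene sum moved the difference of log2(TPM + 1) by at most 0.17 (Prtn3). With 3 libraries a genotype, an exact test on a single value cannot go below 0.1, and whether the libraries are separate animals is not stated.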
